A study of Mus musculus with 4 samples.

Results

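The cells described here are those of the spinal cord other than macrophages in tau-transgenic mice at 2 ages, 30 and 33 weeks. Both groups carried the P301S tau transgene in the homozygous state and were wild type for CD8, and each age had 1 library, prepared from 2 spinal cords combined, so no test between the ages exists. Cells were taken with at least 500 unique molecular identifiers (UMIs, each standing for 1 captured RNA molecule), at least 200 genes, at most 15% mitochondrial UMIs, and less than 0.5% of UMIs from the complement genes C1qa, C1qb and C1qc, which mark microglia and other macrophages. This left 5915 of the 9581 cells that passed the first 3 limits in the 2 libraries, 2740 at 30 weeks and 3175 at 33 weeks, and 5889 once called doublets were removed. The remaining pair of libraries, both at 30 weeks, is given as values only: P301S negative mice with wild-type CD8 (the tau-negative library) and P301S homozygous mice labelled CD8 KO, where 15 of 59 T cells held a UMI of Cd8a or Cd8b1. All cords came from mice perfused with cold saline, were dissociated with an enzyme kit made for tumours in a heated dissociator and were depleted of myelin with beads. The promoter of the transgene and the sex of the mice were not given in the sources used here.

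Tau is a neuronal protein that binds microtubules, and the P301S change, found in families with frontotemporal dementia, makes it prone to aggregate. Mice that express it widely develop motor deficits with tangles in spinal cord and brainstem. Around these neurons, endothelial cells joined by tight junctions form the blood-spinal cord barrier, pericytes and smooth muscle cells wrap the vessels, ependymal cells line the central canal, and astrocytes and oligodendrocyte precursors fill the tissue. Neutrophils, erythroid cells and B cell precursors belong to blood and bone marrow, and vertebral marrow or blood can be carried along when a cord is dissected.

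The 4 libraries held 36331214 to 43531426 UMIs in 20454 passing cells of 22644 barcodes, and any pair of libraries shared 0 to 3 barcodes among the cells outside macrophages. The kept cells had a median of 4860.5 UMIs at 30 weeks and 4215 at 33 weeks. Cells were typed by clusters and marker genes fixed as lists, and names such as endothelial stand throughout for endothelial-like, since they rest on RNA markers alone. Every interval in parentheses is a 95% interval for counting error only (exact binomial for shares, exact Poisson for levels, conditional binomial for folds), and does not hold the spread between mice. Just inside the C1q limit, with 0.2 to 0.5% of UMIs, lay 40 cells at 30 weeks and 68 at 33 weeks, and just outside it, with 0.5 to 1.0%, lay 76 and 79.

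Erythroid cells, the precursors of red blood cells, made up a share of the cells outside macrophages that was 1.95 times as large at 33 weeks, and the share of endothelial cells and neutrophils was lower. Erythroid cells were 7.34% (6.39 to 8.38) at 30 weeks and 14.3% (13.1 to 15.6) at 33 weeks, a ratio of 1.95 (1.65 to 2.32), beside 7.85% in the tau-negative library and 3.16% in the library labelled CD8 KO. The 33-week share lay above those of all 3 libraries of 30 weeks. Among cells whose sex could be called, the higher share lay in female and not in male cells, as given below. Neutrophils were 21.3% (19.8 to 22.9) at 30 weeks and 17.9% (16.5 to 19.2) at 33 weeks, a ratio of 0.840 (0.746 to 0.944), and both values lay above the tau-negative share of 13.8% and the 7.85% of the library labelled CD8 KO. Endothelial cells of all kinds were 35.6% (33.8 to 37.4) at 30 weeks and 31.1% (29.5 to 32.8) at 33 weeks, a ratio of 0.874 (0.799 to 0.956). Among the cord-resident types alone (endothelial, mural, fibroblast, glial and ependymal cells) that ratio was 0.957 (0.875 to 1.05), with an interval that includes 1, and with female cells only it was 0.671 of all cells outside macrophages.

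Of the smaller types, ependymal cells, whose cilia move the cerebrospinal fluid, were 7.43% (6.06 to 9.01) at 30 weeks and 10.4% (8.83 to 12.2) at 33 weeks of the cord-resident cells, a ratio of 1.40 (1.07 to 1.84). Over all cells outside macrophages their ratio was 1.28 (0.979 to 1.68), and with female cells only it was 0.861, on the other side of 1. Fibroblasts numbered 34 cells at 30 weeks and 19 at 33 weeks, a ratio of shares of 0.482 (0.260 to 0.869) among cells outside macrophages, and the tau-negative share of 0.651% was near the 0.601% of 33 weeks. A cluster of macrophages with few C1q UMIs was 0.660% at 30 weeks and 1.20% at 33 weeks, a ratio of 1.82 (1.01 to 3.39). T cells were 1.61% (1.18 to 2.16) at 30 weeks and 1.93% (1.48 to 2.47) at 33 weeks, a ratio of 1.19 (0.798 to 1.80), and both shares lay above the 0.627% of the tau-negative library. The intervals of the ratio included 1 for pericytes at 1.09 (0.712 to 1.67), smooth muscle at 1.25 (0.759 to 2.08), astrocytes at 0.836 (0.498 to 1.40), oligodendrocyte precursors at 1.11 (0.713 to 1.74), Schwann cells at 0.769 (0.466 to 1.26), monocytes at 1.08 (0.828 to 1.42), B cells at 0.924 (0.728 to 1.17) and dendritic cells at 1.24 (0.657 to 2.41), so that no difference was detectable at this number of cells. The ratio for oligodendrocyte precursors was 0.528 at a finer clustering and 0.528 with the 2 libraries clustered alone, and that for astrocytes was 0.315 with female cells only, which numbered 3 at 33 weeks. Oligodendrocytes, which make myelin, were 0 of 2726 cells at 30 weeks, which allows a share of up to 0.110%, and 2 cells at 33 weeks.

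**Figure D1:**
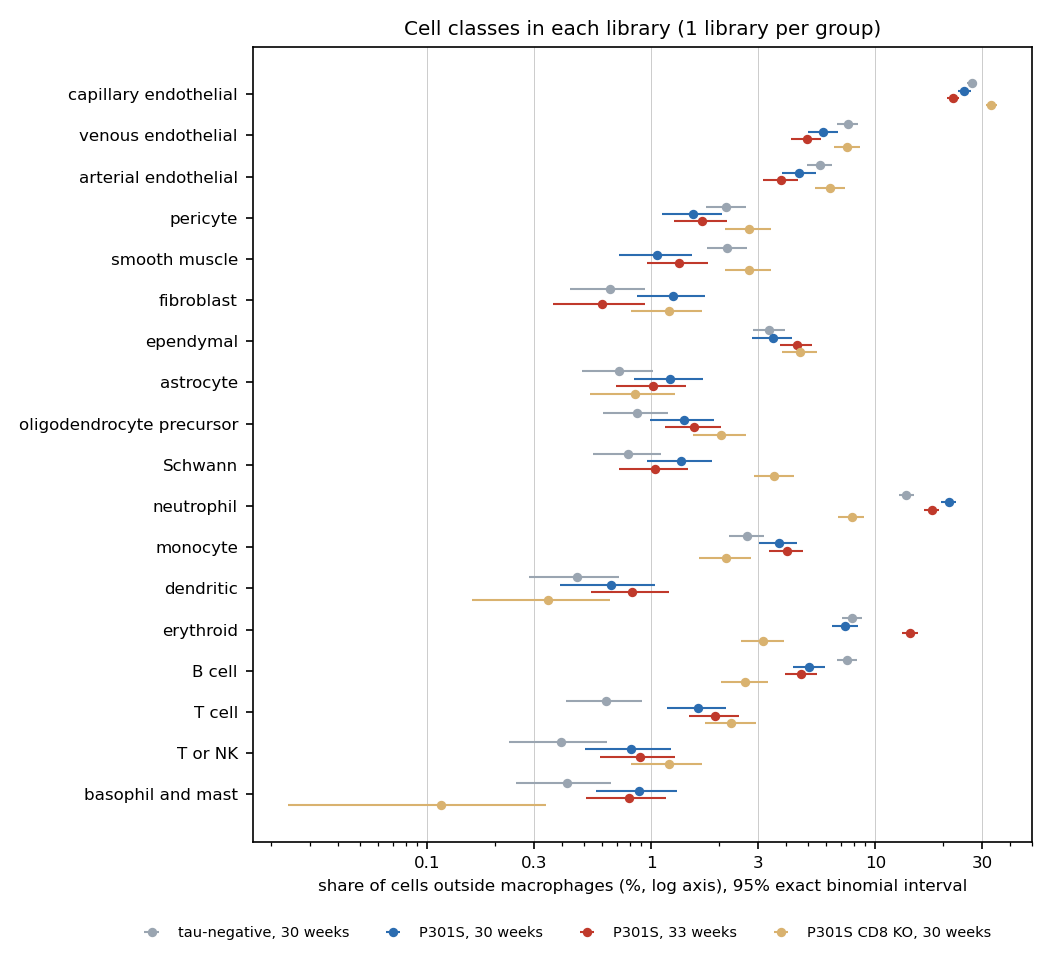
Share of each cell class among cells outside macrophages (horizontal log axis, percent) in the 4 libraries, with 95% exact binomial intervals. A library with no cell of a class has no point. The erythroid share of the 33-week library (14.3%) lies above the other libraries, while most other classes of the 2 P301S wild-type-CD8 libraries have overlapping intervals.

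The sexes of the mice differed between the libraries, and within the 33-week library blood and marrow types differed from cord-resident types in their share of female cells. A cell was called female when it held UMIs of Xist, the RNA that silences an X chromosome, and male when it held UMIs of the Y-linked genes Ddx3y, Eif2s3y, Uty or Kdm5d. The 30-week library held 1926 female and 0 male cells, and the 33-week library 1080 female and 696 male cells. At 33 weeks female cells were 49.6% (46.2 to 53) of the called cord-resident cells, 47.7% (43.8 to 51.7) of endothelial cells and 49.9% (47.0 to 52.7) of the macrophages above the C1q limit, but 77.5% (74.1 to 80.7) of the marrow and blood types. By class these were erythroid cells at 86.1% (80.7 to 90.5), monocytes at 76.1% (66.1 to 84.4), B cells at 72.9% (62.9 to 81.5), neutrophils at 70.1% (62.0 to 77.5) and T cells at 70.3% (53 to 84.1). Pericytes, with 75% (56.6 to 88.5) of 32 calls, and oligodendrocyte precursors, with 70.6% (44 to 89.7) of 17, also lay high. The tau-negative library, which also holds both sexes, had the opposite order, with 61.5% (59.1 to 63.9) female cells among cord-resident types and 40.7% (36.9 to 44.5) among marrow and blood types. Among neutrophils 144 of 565 cells at 33 weeks had a call, with a median of 5424 UMIs in female-called and 1960 in male-called cells, beside 2070 in all neutrophils. Of the 60 erythroid cells at 33 weeks in the cluster led by Bpgm and Hba-a2, 0 were called female and 1 male. The female share of erythroid cells thus rests on their other clusters.

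Since a library pooled 2 mice, the female and male cells of the 33-week library came from different animals, so that sex and mouse cannot be told apart there, nor sex composition and age between the libraries. With female cells only, the erythroid ratio was 3, that of neutrophils 0.995 and that of monocytes 1.5. Erythroid cells were 107 of 1926 female-called cells at 30 weeks. At 33 weeks they were 180 of 1080 female-called and 29 of 696 male-called cells. The male-called share at 33 weeks thus lay below the female-called share at 30 weeks, where the library held no male cells. In capillary endothelial cells, female and male cells of the 33-week library differed at least 1.5-fold in 6.14% of 5827 genes measured in both, while the 2 ages differed that far in 4.70% of all measured genes. Of the genes 1.5-fold higher at 33 weeks that were measured in both sexes, 42 of 82 were as far from the 30-week female cells in female and in male cells alike, as were 63 of 144 of the lower ones. Over all 7472 genes so measured, 0.656% were that far higher in both sexes and 1.02% that far lower. The genes were called on a sum that holds these same cells, and both sexes share the same reference, so the agreement is partly built in. In other classes the sexes of the 33-week library differed that far in more of the genes measured in both: 46.5% in B cells, 30.4% in neutrophils, 18% in erythroid cells and 14.1% in monocytes, beside 12.9%, 8.59%, 10.7% and 7.97% between the ages. Male cells with a call are fewer in these classes, and the gene sets of the percentages differ. Of the erythroid genes higher at 33 weeks, 1 of 32 were as far in both sexes, and of the lower ones 41 of 191. The counts were 10 of 37 and 12 of 39 in neutrophils, 9 of 20 and 26 of 58 in monocytes, and 25 of 65 and 21 of 38 in B cells. Over all genes so measured, those higher and lower in both sexes were 0.0951% and 1.4% in erythroid cells and 1.33% and 1.21% in neutrophils. They were 0.595% and 1.64% in monocytes, and 2.25% and 1.69% in B cells. Where values for each sex at 33 weeks are given beside a gene, both are set against the female cells of the 30-week library. Genes named by rank were taken with those at least 1.5-fold the same way in female cells first. Their female values are therefore not independent of that choice. Of 142 genes given here that were checked for it and had a value in both sexes, 14 had the sexes on opposite sides of 0. Not every gene given here was checked. Outside that count Lyz2 and Hmgb2 in oligodendrocyte precursors, Mylk and Myl9 in pericytes and Fcer2a in B cells also did.

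**Figure D2:**
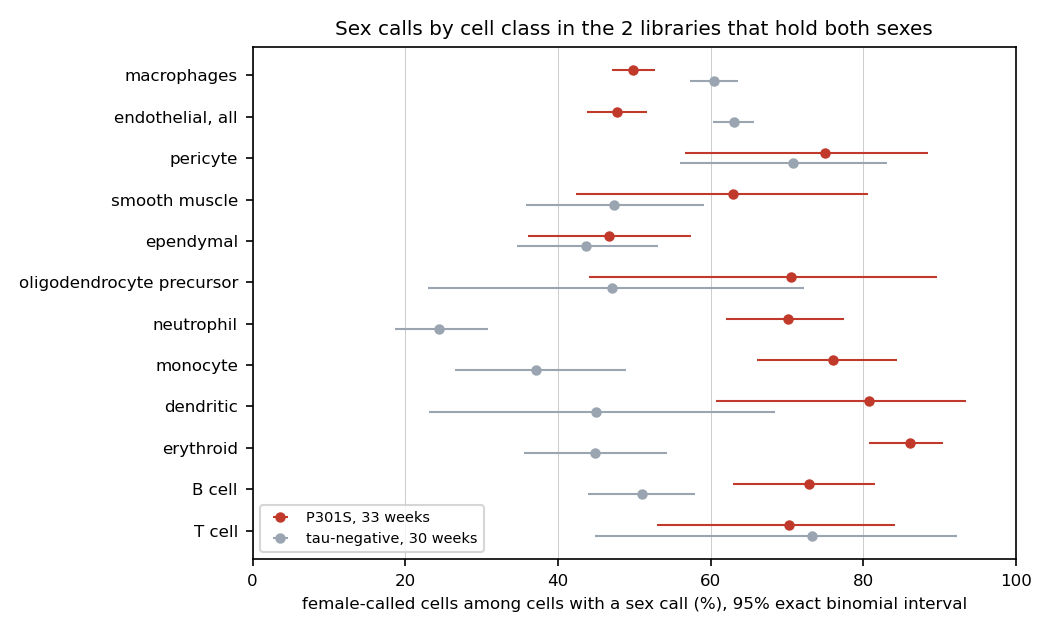
Share of female-called cells among cells with a sex call (horizontal axis, percent) by class, for the 33-week P301S library and the tau-negative library, with 95% exact binomial intervals. At 33 weeks the marrow and blood classes, pericytes and oligodendrocyte precursors lie at 70.1% or more, and endothelial cells and macrophages lie near 49.9%.

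Levels are given as CPM, the UMIs of a gene per 1000000 UMIs of its class in a library. Endothelial cells were split into capillary, venous and arterial cells by their markers: capillary cells numbered 682 at 30 weeks (median 4135 UMIs) and 704 at 33 weeks (median 3528 UMIs), venous cells 160 at 30 weeks (median 8521.5 UMIs) and 156 at 33 weeks (median 6189 UMIs), and arterial cells 125 at 30 weeks (median 7701 UMIs) and 120 at 33 weeks (median 7304.5 UMIs). In capillary cells 180 of 8597 measured genes were at least 1.5-fold higher at 33 weeks, 2.09%, and 224 were at least 1.5-fold lower, 2.61%, where measured means at least 50 UMIs over both libraries together. In venous cells 275 of 6601 measured genes were at least 1.5-fold higher at 33 weeks, 4.17%, and 245 were at least 1.5-fold lower, 3.71%. In arterial cells 177 of 5595 measured genes were at least 1.5-fold higher at 33 weeks, 3.16%, and 220 were at least 1.5-fold lower, 3.93%. The marker check found 8 of 8 capillary and 10 of 10 arterial markers in at least 10% of cells, and 7 of 10 venous markers, with the adhesion gene Sele at 5.91 CPM at 30 weeks and Selp at 0 at 33 weeks. The borders between these classes depended on the clustering: arterial cells numbered 33 and 20 when called doublets were kept, and venous cells 31 and 20 at the finer clustering.

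Of the clock genes measured in capillary cells, 6 of 12 were at least 1.5-fold higher at 33 weeks and 0 were lower, with a median log2 ratio of 0.53, beside 0.00 over all measured genes of the class. In venous cells 5 of 11 were higher and 1 was lower (Arntl, which activates the others), with a median of 0.17, or -0.04 in female cells, beside 0.02, and in arterial cells 2 of 10 were higher, with a median of 0.06 beside 0.00. Dbp, a transcription factor of the clock's output (chr7:45705088-45710203, plus strand, mm10, the build of all gene positions given here), had 18.6 CPM at 30 weeks and 51.8 CPM at 33 weeks, beside 43.7 CPM in the tau-negative library and 8.26 CPM in the library labelled CD8 KO in capillary cells. It was 2.78-fold higher (2.07 to 3.77) at 33 weeks, with log2 ratios of 0.62 in female and 1.75 in male cells. The 33-week value was the highest of the 4 libraries, but the tau-negative library lay close below it, while the 2 P301S libraries of 30 weeks were low. Dbp was also 2.36-fold higher (1.59 to 3.54) in venous cells and 2.05-fold higher (1.28 to 3.34) in arterial cells.

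Ciart, a repressor of the clock (chr3:95878503-95882251, minus strand), had 16.3 CPM at 30 weeks and 30.4 CPM at 33 weeks, beside 22 CPM in the tau-negative library and 9.83 CPM in the library labelled CD8 KO in capillary cells. It was 1.86-fold higher (1.32 to 2.63) at 33 weeks. It was 2.54-fold higher (1.40 to 4.76) in venous cells and 1.63-fold higher (0.944 to 2.87) in arterial cells, where the interval includes 1 and the log2 ratio was -1.34 in female and 1.25 in male cells. Hlf and Tef, which bind the same element as Dbp, were 1.63-fold higher (1.28 to 2.09) and 1.63-fold higher (1.24 to 2.15) in capillary cells, with log2 ratios of 0.82 in female and 0.54 in male cells for Hlf and 0.08 in female and 0.82 in male cells for Tef. The tau-negative library again lay between the 2 ages for these genes. The hour at which each mouse was killed is not given in the sources used here, so its part in these values was not tested.

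The promoters of Ciart and Per3 are shown because they hold more than 1 match to an element that the clock's factors are known to bind, with the matches in capitals, 5′ to 3′ on the minus strand of GRCm38.p6, as the 250 bases before the RefSeq start (Ciart chr3:95882229-95882478, Per3 chr4:151044666-151044915). The searches covered both strands from 250 bases before to 50 after the start: the E-box CACGTG, bound by Clock and Arntl, was found in 7.15% of 32851 RefSeq promoters, and the D-box TTATGTAA, bound by Dbp, Hlf and Tef, in 0.938%. Of the 11 measured clock genes with a promoter entry, 4 held an E-box (Ciart, Cry1, Per1, Tef) and 1 a D-box (Per3). The 6 higher genes include 2 with an E-box. Ciart holds 3 E-boxes and Per3 2 D-boxes, and a match describes these letters and no binding.
Ciart: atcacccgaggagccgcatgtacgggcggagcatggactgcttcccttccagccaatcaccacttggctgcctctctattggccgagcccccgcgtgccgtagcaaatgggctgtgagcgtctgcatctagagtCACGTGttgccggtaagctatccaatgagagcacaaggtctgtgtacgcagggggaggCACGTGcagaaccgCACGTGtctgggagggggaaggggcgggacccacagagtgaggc
Per3: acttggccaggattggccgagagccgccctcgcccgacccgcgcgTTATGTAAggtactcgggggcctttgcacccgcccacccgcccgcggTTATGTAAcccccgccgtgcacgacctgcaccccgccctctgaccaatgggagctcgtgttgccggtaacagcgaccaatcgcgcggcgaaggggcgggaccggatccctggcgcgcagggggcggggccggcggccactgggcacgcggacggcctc

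Several genes induced by type I interferon, the antiviral signal, were lower at 33 weeks in arterial and capillary cells. In arterial cells 6 of 16 measured members were at least 1.5-fold lower and 0 higher, with a median log2 ratio of -0.46 beside 0.00. In capillary cells 4 of 17 were lower, with a median of -0.21, and in venous cells 1 of 15, with a median of -0.13. Irf7, the transcription factor that amplifies the response (chr7:141262706-141266481, minus strand), had 146 CPM at 30 weeks and 94 CPM at 33 weeks, beside 132 CPM in the tau-negative library and 157 CPM in the library labelled CD8 KO in capillary cells. It was 1.56-fold lower (1.34 to 1.80) at 33 weeks there, 1.57-fold lower (1.29 to 1.91) in arterial cells, and lower in both sexes in capillary cells, with log2 ratios of -0.92 in female and -0.66 in male cells. The 33-week value was below those of all 3 libraries of 30 weeks, the tau-negative one included. Ifi44 was 2.16-fold lower (1.51 to 3.14) and Oas1a, which senses double-stranded RNA, was 2.17-fold lower (1.36 to 3.57) in capillary cells, again with the 33-week library lowest of the 4 at 14.1 and 8.31 CPM.

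In arterial cells Rsad2, which makes an antiviral nucleotide, was 1.86-fold lower (1.43 to 2.44). Ifit1, which binds viral RNA, was 1.65-fold lower (1.29 to 2.13). Oasl2 was 1.53-fold lower (1.11 to 2.10). Their 33-week levels of 86.8, 102 and 66.4 CPM were the lowest of the 4 libraries, and those of the tau-negative library, 196, 245 and 145 CPM, the highest. With called doublets kept, when arterial cells were fewer, the log2 ratio of Rsad2 was 0.02, on the other side of 0. The promoter of Oas1a is shown as the one gene at least 1.5-fold lower in capillary cells whose promoter held the interferon element (TTTC, any 2 bases, TTTC), in capitals where its reverse complement matches (chr5:120907526-120907775, minus strand, GRCm38.p6, RefSeq start). The 2 matches overlap, and the element was found in 3.44% of all promoters and in 9 of the 13 measured interferon genes with an entry.
Oas1a: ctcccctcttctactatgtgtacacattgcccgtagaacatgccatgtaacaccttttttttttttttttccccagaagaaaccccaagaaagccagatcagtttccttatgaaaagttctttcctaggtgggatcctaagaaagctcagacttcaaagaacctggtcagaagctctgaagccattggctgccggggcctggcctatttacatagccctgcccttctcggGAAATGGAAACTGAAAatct

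MHC class I genes, which display peptides to CD8 T cells, were lower in 3 of 13 measured members in capillary cells, with none higher and a median log2 ratio of -0.34. The median was -0.26 in venous cells, with 1 higher and 1 lower of 13, and -0.20 in arterial cells, with 0 higher and 0 lower of 13. H2-Q7 (chr17:35439155-35443773, plus strand) had 122 CPM at 30 weeks and 75.1 CPM at 33 weeks, beside 408 CPM in the tau-negative library and 93.1 CPM in the library labelled CD8 KO in capillary cells. It was 1.63-fold lower (1.39 to 1.92) at 33 weeks, and its near-identical neighbour H2-Q6 was 1.96-fold lower (1.55 to 2.49), so that reads of the pair may be exchanged. Tap1, a pump that loads peptides onto class I molecules, was 1.59-fold lower (1.20 to 2.12) in capillary and 2.11-fold lower (1.32 to 3.48) in venous cells. All 3 P301S libraries lay far below the tau-negative library for the H2-Q genes, with the 33-week library lowest. Of the genes induced by interferon gamma, 2 of 13 were lower in capillary and 3 of 13 in venous cells, among them Irgm1, a GTPase against intracellular microbes, at 85.2 CPM at 30 weeks and 47.1 CPM at 33 weeks, beside 168 CPM in the tau-negative library and 71.6 CPM in the library labelled CD8 KO. It was 1.81-fold lower (1.33 to 2.48). Gbp2, a related GTPase, was 1.54-fold lower (1.19 to 2.01). Gbp2 did not keep its direction at the finer clustering, with a log2 ratio of 0.04.

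Over all 3 endothelial classes, 11 of 5431 genes measured in each (0.203%) were at least 1.5-fold higher in every class and 8 (0.147%) at least 1.5-fold lower. The higher ones were Dbp, Ciart, the heat shock gene Hsph1, Rgcc, Depp1, Hrct1, 4 haemoglobin genes and the Y-linked Ddx3y, and the lower ones were Tmcc3, Adamts9, Hivep2, Litaf, Lmcd1, Hist1h1c, the interferon gene Ifi27l2a and Xist. Xist and Ddx3y follow the sexes of the mice. Haemoglobin UMIs were 222 CPM at 30 weeks and 1917 CPM at 33 weeks in capillary cells, 163 and 2699 CPM in venous cells, and 169 and 4255 CPM in arterial cells. At 33 weeks 10 cells held 72.2%, 86.8% and 92.9% of these UMIs in the 3 classes, and without the 10 highest cells of each library the levels were 203 and 534, 125 and 356, and 123 and 302 CPM. The part of carried-over erythroid RNA in these values was not tested.

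Tmcc3, a membrane protein of the endoplasmic reticulum (chr10:94311949-94590956, plus strand), had 344 CPM at 30 weeks and 198 CPM at 33 weeks, beside 143 CPM in the tau-negative library and 242 CPM in the library labelled CD8 KO in capillary cells. It was 1.74-fold lower (1.58 to 1.92) in capillary, 2.25-fold lower (1.91 to 2.66) in venous and 2-fold lower (1.63 to 2.46) in arterial cells, with log2 ratios in capillary cells of -0.63 in female and -0.89 in male cells. In each class the 30-week P301S library with wild-type CD8 was the highest of the 4 and the tau-negative library the lowest, with the 33-week library next above it. Asb4, part of a ubiquitin ligase with a role in vessel development (chr6:5383386-5433022, plus strand), was also highest at 30 weeks, with 139.5 CPM at 30 weeks and 55.3 CPM at 33 weeks, beside 72.6 CPM in the tau-negative library and 114 CPM in the library labelled CD8 KO in capillary cells, where it was 2.52-fold lower (2.12 to 3.02) at 33 weeks, and was 1.98-fold lower (1.59 to 2.48) in arterial cells. Adamts9, a protease of the matrix, was 2.71-fold lower (1.96 to 3.79) in capillary cells, at 44.1 CPM at 30 weeks and 16.3 CPM at 33 weeks, beside 19.5 CPM in the tau-negative library and 45.3 CPM in the library labelled CD8 KO, with log2 ratios of -1.28 in female and -1.49 in male cells. Nav2, which guides cell processes, was 2.01-fold lower (1.59 to 2.54). Lrrc32, which holds latent TGF-beta on the cell surface, was 2.22-fold lower (1.64 to 3.04).

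Among the genes higher in capillary cells, Car14, a carbonic anhydrase that balances acid (chr3:95897768-95904691, minus strand), had 12.9 CPM at 30 weeks and 35.2 CPM at 33 weeks, beside 20.5 CPM in the tau-negative library and 24.3 CPM in the library labelled CD8 KO. It was 2.73-fold higher (1.91 to 3.95), with log2 ratios of 1.11 in female and 1.54 in male cells. Ctps, which makes the nucleotide CTP, was 2.12-fold higher (1.5 to 3.03). Hic1, a transcriptional repressor, was 2.04-fold higher (1.47 to 2.85). Tnik, a kinase of Wnt signalling, was 2.29-fold higher (1.52 to 3.52). The tau-negative library had levels close to the 33-week ones for Ctps and Hic1, 27.9 and 34.5 CPM against 31.6 and 34.5 CPM, but 10.2 against 23.7 CPM for Tnik.

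Of the genes that glucocorticoids induce, 3 of 13 were higher in capillary cells and 0 lower, with a median log2 ratio of -0.11, and in venous cells 1 was higher and 2 lower of 13, with a median of -0.29. Fkbp5, a chaperone partner that damps the glucocorticoid receptor (chr17:28399094-28517527, minus strand), had 12.3 CPM at 30 weeks and 31.0 CPM at 33 weeks, beside 3.39 CPM in the tau-negative library and 24.3 CPM in the library labelled CD8 KO in capillary cells. It was 2.52-fold higher (1.74 to 3.69) at 33 weeks. The log2 ratio was -0.60 in female and 1.69 in male cells, so that the difference was on opposite sides in the 2 sexes. Zbtb16, a transcription factor, was 1.57-fold higher (1.37 to 1.81) in capillary and 1.83-fold higher (1.45 to 2.33) in arterial cells. Sult1a1, which adds sulphate to phenols and steroids, was 1.64-fold higher (1.41 to 1.90) in capillary cells in both sexes (0.74 in female and 0.68 in male cells). Mt2, a metal-binding protein of the same list, was 1.59-fold lower (1.45 to 1.76) in venous cells, at 777 CPM at 30 weeks and 488 CPM at 33 weeks, beside 554 CPM in the tau-negative library and 644 CPM in the library labelled CD8 KO. Barrier genes, which include the tight junction protein Cldn5 and the glucose carrier Slc2a1, had 0 members past 1.5-fold in either direction in all 3 classes, of 15 measured in each, with median log2 ratios of 0.07, 0.12 and 0.07 in capillary, venous and arterial cells.

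Hsph1, a heat shock protein that helps refold proteins, was 1.83-fold higher (1.35 to 2.5) in capillary, 1.59-fold higher (1.03 to 2.47) in venous and 2.08-fold higher (1.30 to 3.40) in arterial cells, but in each the tau-negative library was higher still, at 93.4, 110.3 and 105 CPM, and in arterial cells with called doublets kept the log2 ratio was -0.76. Of the whole heat shock list 1 of 13, 2 of 13 and 1 of 12 members were higher in capillary, venous and arterial cells. Venous cells had Depp1, a target of FoxO factors, at 103 CPM at 30 weeks and 224 CPM at 33 weeks, beside 195 CPM in the tau-negative library and 227 CPM in the library labelled CD8 KO. It was 2.17-fold higher (1.79 to 2.63). Paqr7, a membrane progestin receptor, was 1.75-fold higher (1.40 to 2.19). Cyp2e1, a cytochrome that oxidises ethanol, was 2.19-fold higher (1.57 to 3.08). Zfp68, a zinc finger protein, was 2.30-fold higher (1.52 to 3.53). Med9, a subunit of Mediator, was 2.17-fold higher (1.49 to 3.18). Venous cells were 2 clusters, of which the one led by Cyp2e1 and Vwf held 30.6% of them at 30 weeks and 39.1% at 33 weeks, and the one led by Icam1 and Ptgs2 69.4% and 60.9%, and their part in the venous levels was not tested. For Depp1 the tau-negative library at 195 CPM and the library labelled CD8 KO at 227 CPM were close to the 33-week one.

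On the lower side, Plaur, the receptor that localises urokinase (chr7:24462484-24475968, plus strand), had 271 CPM at 30 weeks and 119 CPM at 33 weeks, beside 191 CPM in the tau-negative library and 288 CPM in the library labelled CD8 KO in venous cells. It was 2.28-fold lower (1.90 to 2.76). Cxcl2, a chemokine that attracts neutrophils, was 2.43-fold lower (2.01 to 2.96), at 265 CPM at 30 weeks and 109 CPM at 33 weeks, beside 385 CPM in the tau-negative library and 184 CPM in the library labelled CD8 KO. Pfkfb3, which speeds glycolysis, was 2.99-fold lower (1.86 to 5.02). For these 3 genes the 33-week library was the lowest of the 4, and the ratio lay below 1 in the female and in the male cells. Fabp4, a fatty acid carrier, was 61.2-fold lower (16.7 to 509.9), but 98.1% of its UMIs at 30 weeks lay in 1 cell. In arterial cells Ccn1, a matrix protein that answers to stretch, had 571 CPM at 30 weeks and 976 CPM at 33 weeks, beside 789 CPM in the tau-negative library and 724 CPM in the library labelled CD8 KO. It was 1.71-fold higher (1.54 to 1.89), with log2 ratios of 1.06 in female and 0.64 in male cells, but it lay on the other side of 1 when called doublets were kept (log2 ratio -0.29). Amotl2, which links junctions to the actin skeleton, was 2.01-fold higher (1.47 to 2.75). Card10, a scaffold of NF-kB signalling, was 2.34-fold higher (1.54 to 3.60). Smtn, a protein of contractile cells, was 1.90-fold higher (1.35 to 2.69). Depp1 was 1.82-fold higher (1.62 to 2.05). Angpt2, which loosens vessels, was 3.19-fold lower (1.74 to 6.25), with 34.0% of its 30-week UMIs in 1 cell, and Cytl1 was 2.35-fold lower (1.74 to 3.22), with 37.3% in 1 cell. Nts and Igfbp5 had 156 and 96.7 CPM at 30 weeks and 0 at 33 weeks, and all of their UMIs at 30 weeks came from 1 cell each.

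**Figure D3:**
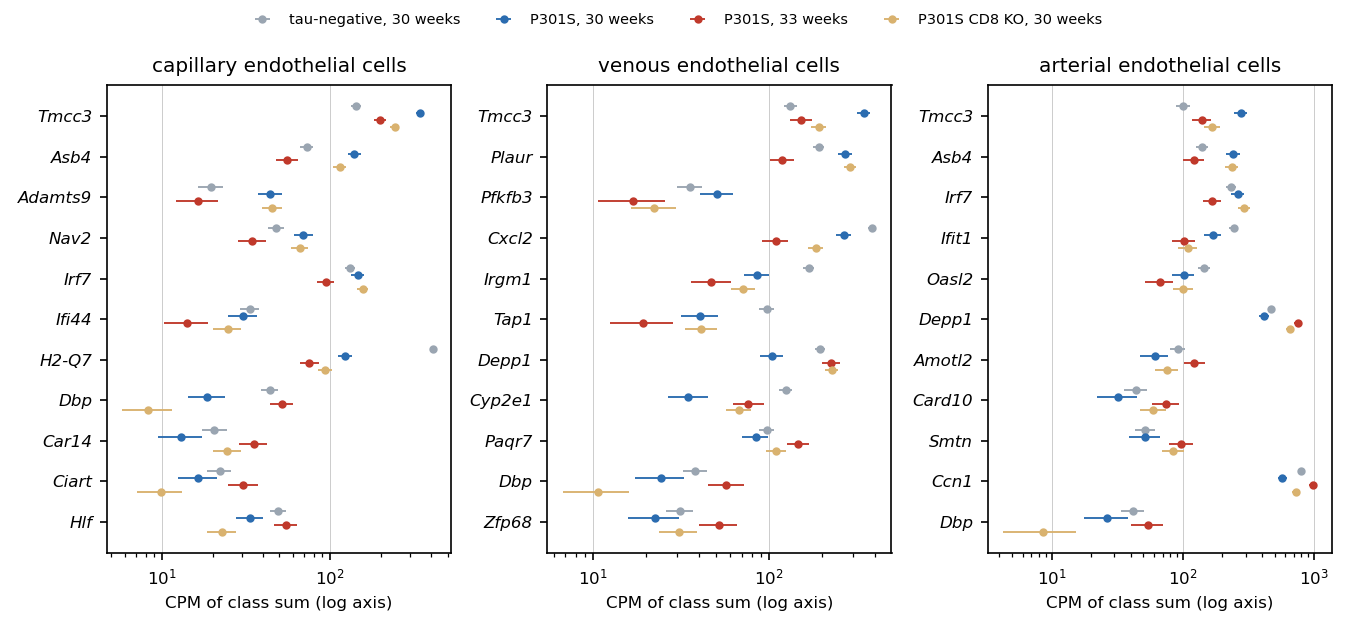
Levels of named genes in capillary, venous and arterial endothelial cells, as CPM of the class sum (log axis), in the 4 libraries, with 95% exact Poisson intervals. In capillary cells Tmcc3 stands at 344 CPM in the P301S library at 30 weeks and 198 CPM at 33 weeks, and Dbp at 18.6 and 51.8 CPM.

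Pericytes, which wrap capillaries, had higher levels of 4 of 7 measured contractile genes and lower levels of 6 of 11 measured early response genes at 33 weeks, in few cells. They numbered 42 at 30 weeks (median 2083.5 UMIs) and 53 at 33 weeks (median 1971 UMIs), left after 100 of 142 cells of the pericyte clusters at 30 weeks and 81 of 134 at 33 weeks were set aside for holding markers of a second lineage, mainly endothelial. In these cells 54 of 599 measured genes were at least 1.5-fold higher at 33 weeks, 9.02%, and 40 were at least 1.5-fold lower, 6.68%. Of the contractile list 4 of 7 measured members were higher and 0 lower, with a median log2 ratio of 1.21 beside 0.00 over all measured genes. Acta2, the actin of smooth muscle (chr19:34241090-34255590, minus strand), had 140.3 CPM at 30 weeks and 1357 CPM at 33 weeks, beside 1185 CPM in the tau-negative library and 234 CPM in the library labelled CD8 KO. It was 9.67-fold higher (5.38 to 19.1), with log2 ratios of 3.35 in female and 3.37 in male cells. Tagln, an actin-binding protein of contractile cells, was 10.8-fold higher (4.77 to 30.4), and Tpm1 and Tpm2, tropomyosins that lie along actin, were 2.54-fold higher (1.65 to 4.03) and 2.32-fold higher (1.40 to 4.01). The tau-negative library was close to the 33-week one for Acta2, Tagln and Tpm2, with 1185, 878 and 562 CPM, and the 2 P301S libraries of 30 weeks were low. The other measured members differed less than 1.5-fold: Myl9, a myosin light chain, was 1.12-fold higher (0.967 to 1.29). Mylk, the kinase of that chain, was 1.16-fold higher (0.715 to 1.91). Cald1, which binds actin, was 1.18-fold higher (1.02 to 1.37). At 33 weeks 1 cell held 20% of the Acta2 and 28.6% of the Tagln UMIs, and the part of smooth muscle cells within the cluster was not tested.

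Early response genes, which switch on within minutes of stress or tissue handling, were lower in 6 of 11 measured members of pericytes and higher in 0, with a median of -0.68, but the median was 0.05 when the cells set aside were kept. Jun, a subunit of the AP-1 factor, had 3121 CPM at 30 weeks and 1474 CPM at 33 weeks, beside 2362 CPM in the tau-negative library and 3355 CPM in the library labelled CD8 KO. It was 2.12-fold lower (1.74 to 2.59). Dusp1, a phosphatase that turns off MAP kinases, was 2.36-fold lower (1.54 to 3.68). Hspa1a, an inducible heat shock protein, was 3.40-fold lower (2.58 to 4.54) at 2186 CPM at 30 weeks and 642 CPM at 33 weeks, beside 2134 CPM in the tau-negative library and 2262 CPM in the library labelled CD8 KO, while Cryab, a small heat shock protein, was 2.48-fold higher (1.46 to 4.40). Vim, an intermediate filament, was 3.87-fold higher (2.20 to 7.25) with 52.0% of its 33-week UMIs in 1 cell, and had a log2 ratio of -0.14 with the cells set aside kept. For Jun, Dusp1 and Hspa1a the 33-week library was the lowest of the 4.

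In smooth muscle cells, which numbered 29 at 30 weeks (median 5670 UMIs) and 42 at 33 weeks (median 5204.5 UMIs), 0 of 13 measured contractile genes were higher and 0 lower, with a median of -0.03. In them 70 of 1181 measured genes were at least 1.5-fold higher at 33 weeks, 5.93%, and 69 were at least 1.5-fold lower, 5.84%. Klf4, a factor of the muscle cell's phenotype and an early response gene, was 1.58-fold higher (1.25 to 2) at 670.5 CPM at 30 weeks and 1056 CPM at 33 weeks, beside 824 CPM in the tau-negative library and 457 CPM in the library labelled CD8 KO. Bhlhe40, a repressor tied to the clock and to hypoxia, was 2.85-fold lower (1.65 to 5.05). Irf1, a factor of the interferon response, was 2.40-fold lower (1.49 to 3.93). Mt1, a metal-binding protein, was 1.63-fold lower (1.38 to 1.91), with log2 ratios of -0.79 in female and -1.17 in male cells for Irf1 and -0.48 in female and -0.36 in male cells for Mt1. For Bhlhe40, Irf1 and Mt1 the 33-week library was the lowest of the 4.

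Ependymal cells numbered 95 at 30 weeks (median 8579 UMIs) and 141 at 33 weeks (median 5570 UMIs), and in them 254 of 7118 measured genes were at least 1.5-fold higher at 33 weeks, 3.57%, and 194 were at least 1.5-fold lower, 2.73%. Of the heat shock list 3 of 14 measured members were higher and 0 lower, with a median log2 ratio of 0.38 beside 0.04 over all measured genes. Cryab, which keeps proteins from clumping (chr9:50751325-50756636, plus strand), had 198 CPM at 30 weeks and 387 CPM at 33 weeks, beside 335 CPM in the tau-negative library and 229.6 CPM in the library labelled CD8 KO. It was 1.96-fold higher (1.69 to 2.27), with log2 ratios of 0.65 in female and 1.19 in male cells. Hspb1, a small heat shock protein, was 1.71-fold higher (1.44 to 2.05). Hspa1b was 1.88-fold higher (1.24 to 2.90), with a log2 ratio of 1.33 in female and -0.35 in male cells, and in both the tau-negative library was the highest, at 446 and 112 CPM. The early gene Nr4a1, a nuclear receptor, had 1935 CPM at 30 weeks and 1169.7 CPM at 33 weeks, beside 1725 CPM in the tau-negative library and 1486 CPM in the library labelled CD8 KO. It was 1.65-fold lower (1.56 to 1.76), while the list as a whole had 0 higher and 1 lower of 20. Fas, a death receptor, was 1.55-fold lower (1.32 to 1.83). Cxcl10, a chemokine that attracts T cells, was 1.65-fold higher (1.40 to 1.96), with 21.8% of its 33-week UMIs in 1 cell. Genes of macrophages were also higher in ependymal cells: the 3 C1q genes summed to 79.2 CPM at 30 weeks and 156 CPM at 33 weeks, with 58.1% of the 33-week C1qa UMIs in 1 cell, and Tyrobp was 1.93-fold higher (1.25 to 3.03). Among cells with C1q UMIs under 0.2% the log2 ratio of Tyrobp was -0.15 and the median of the heat shock list 0.38. The part of the lower depth at 33 weeks was not tested.

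Astrocytes were few and numbered 33 at 30 weeks (median 2697 UMIs) and 32 at 33 weeks (median 2717 UMIs), and in them 68 of 1082 measured genes were at least 1.5-fold higher at 33 weeks, 6.28%, and 66 were at least 1.5-fold lower, 6.1%. Of the reactive glia list, genes that astrocytes raise after injury, 3 of 10 measured members were lower and 0 higher, with a median log2 ratio of -0.20, and of 0.14 in the 3 female cells. Timp1, an inhibitor of matrix proteases, had 1015 CPM at 30 weeks and 499 CPM at 33 weeks, beside 0 CPM in the tau-negative library and 425 CPM in the library labelled CD8 KO. It was 2.03-fold lower (1.56 to 2.67). Cd44, a receptor for hyaluronan, was 1.94-fold lower (1.43 to 2.68) at 731 CPM at 30 weeks and 376 CPM at 33 weeks, beside 20.7 CPM in the tau-negative library and 337 CPM in the library labelled CD8 KO. Cd109, a surface protein that binds TGF-beta, was 2.24-fold lower (1.25 to 4.19). All 3 were at or near 0 in the tau-negative library, so that the 33-week level lay between it and the 30-week P301S level, and 42.5% of the Timp1 UMIs at 30 weeks came from 1 cell. Cebpd, a factor of the inflammatory response, was 2.64-fold higher (1.82 to 3.88), with log2 ratios of -0.21 in female and 1.44 in male cells, where the female value rests on 3 cells.

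Oligodendrocyte precursors numbered 38 at 30 weeks (median 6464.5 UMIs) and 49 at 33 weeks (median 1451 UMIs), and in them 72 of 1550 measured genes were at least 1.5-fold higher at 33 weeks, 4.65%, and 103 were at least 1.5-fold lower, 6.65%. The class depended on the clustering. At the finer clustering, and with the 2 libraries clustered alone, it held 31 cells at 30 weeks and only 19 at 33 weeks. Early response genes were higher in 3 of 14 measured members and lower in 0, with a median of 0.40 beside -0.01. In the main clustering S100a8 and S100a9, genes of neutrophils, had summed levels of 154 CPM at 30 weeks and 691 CPM at 33 weeks in these cells, beside 87.1 and 198 CPM in ependymal cells and 844 and 169 CPM in monocytes. Lyz2, which was highest in monocytes, was 4.36-fold higher (2.66 to 7.41), and the proliferation genes Hmgb2 and Stmn1 were 2.44-fold and 1.80-fold higher. In female cells all 3 lay on the other side of 0. Their log2 ratios there were -1.02, -1.01 and -0.66, on 3, 5 and 10 UMIs at 33 weeks. In male cells they had 6, 4 and 0 UMIs. Of the 49 cells at 33 weeks, 32 had no sex call, and the female-called ones had a median of 6728.5 UMIs. The part of other cell types in the values of this class was not tested. Btg2, which slows the cell cycle, was 1.83-fold higher (1.49 to 2.25) at 737 CPM at 30 weeks and 1345 CPM at 33 weeks, beside 1868 CPM in the tau-negative library and 874 CPM in the library labelled CD8 KO. Dusp1 was 1.73-fold higher (1.39 to 2.16). Klf4 was 1.81-fold higher (1.37 to 2.40), and in all 3 the tau-negative library was higher than the 33-week one. The log2 ratio of Klf4 was 1.52 in female and -1.54 in male cells, on 3 UMIs in male cells, and the median of the list was -0.06 as a mean over cells. Socs3, which damps cytokine signals, was 1.65-fold higher (1.33 to 2.05), but its log2 ratio was -0.23 as a mean over cells. Schwann cells, the myelin cells of nerve roots, numbered 37 at 30 weeks (median 2499 UMIs) and 33 at 33 weeks (median 2022 UMIs), and in them 36 of 547 measured genes were at least 1.5-fold higher at 33 weeks, 6.58%, and 44 were at least 1.5-fold lower, 8.04%. Hspa5, the main chaperone of the endoplasmic reticulum, was 1.68-fold higher (1.16 to 2.45), with log2 ratios of 0.60 in female and -0.19 in male cells. B2m, the shared chain of MHC class I, was 1.63-fold lower (1.15 to 2.34). Its log2 ratios were -0.12 in female and -1.15 in male cells, on 17 and 11 UMIs at 33 weeks. At that age 64.5% of the Apod and 97.7% of the Timp1 UMIs came from 1 cell each.

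Neutrophils, the first phagocytes to reach a wound, had higher levels of several genes of mature cells and lower levels of 2 of 5 measured early granule genes at 33 weeks. They numbered 580 at 30 weeks (median 2678.5 UMIs) and 565 at 33 weeks (median 2070 UMIs), and in them 273 of 4817 measured genes were at least 1.5-fold higher at 33 weeks, 5.67%, and 141 were at least 1.5-fold lower, 2.93%. Neutrophils mature from cells that make the first granule proteins, through cells that make lactoferrin and other specific granule proteins, to cells with chemokine receptors that leave the marrow. Of the mature list 4 of 12 measured members were higher and 0 lower, with a median log2 ratio of 0.44 beside 0.07 over all measured genes. Of the early granule list 2 of 5 were lower, and of the specific granule list 0 of 11 passed 1.5-fold. Ccl6, a chemokine of mature cells (chr11:83587882-83593087, minus strand), had 679 CPM at 30 weeks and 1099 CPM at 33 weeks, beside 1062 CPM in the tau-negative library and 1031 CPM in the library labelled CD8 KO. It was 1.62-fold higher (1.51 to 1.73), with log2 ratios of 0.83 in female and 2.04 in male cells. Cxcr2, the receptor that calls neutrophils out of the marrow, was 1.56-fold higher (1.40 to 1.74). Csf3r, the receptor of the growth factor G-CSF, was 1.56-fold higher (1.37 to 1.77). For these 3 genes the other 2 libraries of 30 weeks were near the 33-week level, and the 30-week P301S library with wild-type CD8 was alone in being low. The log2 ratio of Cxcr2 was 0.29 in female and 1.29 in male cells, where male-called cells had a median of 1960 UMIs and female-called cells 5424.

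Elane, a protease of the first granules, had 53.6 CPM at 30 weeks and 15.6 CPM at 33 weeks, beside 18.2 CPM in the tau-negative library and 0 CPM in the library labelled CD8 KO. It was 3.43-fold lower (2.26 to 5.40), and its neighbour Prtn3 was 2.19-fold lower (1.5 to 3.26). The replication histone Hist1h2ap, 1 of a family of near-identical genes, was 3.29-fold lower (2.19 to 5.10). Tnfaip6, which binds hyaluronan, was 2.38-fold lower (1.61 to 3.60). Krt81, a keratin, was 2.16-fold lower (1.71 to 2.76). Adam19, a surface protease, was 2.38-fold higher (1.64 to 3.5). Senp7, which removes SUMO tags, was 2.14-fold higher (1.44 to 3.19). The cystatin-like genes Stfa1 and Cstdc5, whose reads may be exchanged with close copies, were 1.86-fold higher (1.42 to 2.43) and 3.02-fold higher (2.02 to 4.60), with 25% and 38.5% of their 33-week UMIs in 1 cell. Of the neutrophil clusters, the one led by Retnlg and Ccl6 held 37.6% (33.6 to 41.7) of neutrophils at 30 weeks and 46.7% (42.5 to 50.9) at 33 weeks, and the one led by Ltf and Mmp8 53.3% (49.1 to 57.4) and 45.5% (41.3 to 49.7). The tau-negative library had 49.3% (45.2 to 53.4) and 42.9% (38.9 to 47.0). Clusters and genes come from the same cells and are not independent of each other.

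Monocytes numbered 101 at 30 weeks (median 5913 UMIs) and 127 at 33 weeks (median 4902 UMIs), and in them 150 of 3551 measured genes were at least 1.5-fold higher at 33 weeks, 4.22%, and 133 were at least 1.5-fold lower, 3.75%. Metrnl, a secreted factor (chr11:121701544-121716306, plus strand), had 59.8 CPM at 30 weeks and 150.1 CPM at 33 weeks, beside 166 CPM in the tau-negative library and 96.6 CPM in the library labelled CD8 KO. It was 2.51-fold higher (1.71 to 3.76), with log2 ratios of 1.61 in female and 0.99 in male cells. Cd37, a tetraspanin of leukocytes, was 1.86-fold higher (1.27 to 2.76). Dusp2, a phosphatase of activated leukocytes, was 1.78-fold higher (1.34 to 2.38). Dynll1, a dynein light chain, was 1.47-fold higher (1.27 to 1.69). On the lower side, H2-DMb1, which loads peptides on MHC class II, was 1.70-fold lower (1.38 to 2.09), at 388 CPM at 30 weeks and 229 CPM at 33 weeks, beside 339.9 CPM in the tau-negative library and 695 CPM in the library labelled CD8 KO. Ier3, an early response gene, was 1.73-fold lower (1.49 to 2.02). Tmem176a, a channel of myeloid cells, was 1.90-fold lower (1.39 to 2.60). Rgcc, a regulator of the cell cycle, was 1.98-fold lower (1.42 to 2.79). Of the MHC class II list 0 of 6 measured members were higher and 1 lower, and of the proliferation list 2 of 12 were lower and 0 higher. The 2 were Birc5, 2.39-fold lower (1.53 to 3.82), and Ccnb2, 1.86-fold lower (1.21 to 2.92), both expressed in dividing cells. The large ratios of Acp5, 10.6-fold higher (6.66 to 18), and Cxcl10, 2.76-fold higher (1.81 to 4.32), rested on 1 cell each, which held 92.7% and 82.2% of their 33-week UMIs. Without that cell their log2 ratios were -0.33 and -1.02.

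Erythroid cells numbered 200 at 30 weeks (median 8089 UMIs) and 453 at 33 weeks (median 6586 UMIs), and in them 116 of 4858 measured genes were at least 1.5-fold higher at 33 weeks, 2.39%, and 404 were at least 1.5-fold lower, 8.32%. Another scaling (the trimmed mean, TMM) raised the ratios of this class by 0.17 on the log2 scale and gave 304 higher and 175 lower genes, so the split into higher and lower depends on the scaling, and ratios are read against the class median of -0.12. Of the maturation genes 0 of 12 were higher and 0 lower, with a median of 0.23, and of the proliferation genes 0 and 0 of 16, with a median of 0.04. Cdkn2d, an inhibitor of the cell cycle kinases (chr9:21288410-21291407, minus strand), had 203 CPM at 30 weeks and 339 CPM at 33 weeks, beside 189 CPM in the tau-negative library and 233 CPM in the library labelled CD8 KO. It was 1.67-fold higher (1.5 to 1.87). Pdzk1ip1, a membrane protein, was 1.64-fold higher (1.49 to 1.80). Their log2 ratios were 0.83 in female and -0.79 in male cells for Cdkn2d and 0.71 in female and -0.35 in male cells for Pdzk1ip1, where 29 male cells had a call. Apol8, an apolipoprotein, was 1.84-fold higher (1.38 to 2.49). Snx22, which sorts membrane proteins, was 1.70-fold higher (1.31 to 2.23). Hirip3, a histone chaperone, was 1.74-fold higher (1.31 to 2.34).

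Selenow, a small selenoprotein, was 2.13-fold lower (1.74 to 2.60) in erythroid cells, at 109 CPM at 30 weeks and 51.2 CPM at 33 weeks, beside 63.8 CPM in the tau-negative library and 61.3 CPM in the library labelled CD8 KO. Oat, an enzyme of ornithine, was 2.13-fold lower (1.61 to 2.81). Ndufa10, a subunit of respiratory complex I, was 1.87-fold lower (1.51 to 2.31), and the histone Hist1h2ap 2.01-fold lower (1.75 to 2.30). For Selenow and Oat the 33-week library was the lowest of the 4, while for Ndufa10 and Hist1h2ap the tau-negative library was lower. By cluster, the cells led by Bpgm and Hba-a2, genes of late precursors, were 25.5% (19.6 to 32.1) of erythroid cells at 30 weeks and 13.2% (10.3 to 16.7) at 33 weeks, beside 30.8% (25.9 to 36) in the tau-negative library. Those led by Tmcc2 and Slfn14 were 28.0% (21.9 to 34.8) and 40.6% (36.1 to 45.3), and those led by Car1 and Rhd 46.5% (39.4 to 53.7) and 46.1% (41.5 to 50.9).

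B cells, which numbered 138 at 30 weeks (median 2285 UMIs) and 148 at 33 weeks (median 2039.5 UMIs), had higher levels of several genes of mature cells and lower levels of several genes of DNA replication at 33 weeks. In them 251 of 2550 measured genes were at least 1.5-fold higher at 33 weeks, 9.84%, and 79 were at least 1.5-fold lower, 3.1%; TMM scaling, which moved each log2 ratio by -0.13, gave 146 higher and 133 lower. Of the maturation list, which holds genes of precursors and of mature cells, 5 of 13 measured members were higher and 0 lower. Its median was 0.34, beside a class median of 0.14. Among the higher ones was the precursor gene Dntt, 1.77-fold (1.09 to 2.90). Of the other precursor genes, Igll1 was 1.46-fold higher (1.07 to 1.98), and Vpreb1, Vpreb3 and Rag1 had intervals that include 1. Fcer2a was 2.02-fold higher (1.20 to 3.46), with log2 ratios of -0.43 in female and 1.56 in male cells. Ighd, the heavy chain constant region of IgD on mature naive cells (chr12:113406604-113416324, minus strand), had 135 CPM at 30 weeks and 312 CPM at 33 weeks, beside 152 CPM in the tau-negative library and 218 CPM in the library labelled CD8 KO. It was 2.30-fold higher (1.75 to 3.04), with log2 ratios of 0.85 in female and 2.15 in male cells. H2-Aa, an MHC class II chain, was 1.62-fold higher (1.49 to 1.76). Ms4a1, which encodes CD20, was 1.53-fold higher (1.28 to 1.82). The log2 ratio of Ms4a1 was -0.03 in female and 0.75 in male cells. Gpr183, which guides B cells within lymphoid tissue, was 3.33-fold higher (2.15 to 5.27) at 47.2 CPM at 30 weeks and 157 CPM at 33 weeks, beside 28.2 CPM in the tau-negative library and 161 CPM in the library labelled CD8 KO. Ptpn6, a phosphatase that damps receptor signals, was 2.26-fold higher (1.64 to 3.15). Odc1, the first enzyme of polyamine synthesis, was 2.25-fold higher (1.65 to 3.10), with 27.7% of its 33-week UMIs in 1 cell.

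Of the proliferation list 4 of 14 measured members were lower in B cells and 1 higher, with a median of -0.38. The higher one was Ube2c, 1.53-fold (1.17 to 2.02), and Mki67 was 1.46-fold higher (1.05 to 2.02). The ratios of Stmn1 and Hmgb2 were 0.687 (0.591 to 0.798) and 0.766 (0.689 to 0.851). Those of Cdk1, Birc5, Top2a and Ccnb2 had intervals that include 1. Rrm2, which makes DNA building blocks, was 2.30-fold lower (1.59 to 3.39) at 190.2 CPM at 30 weeks and 82.7 CPM at 33 weeks, beside 199.6 CPM in the tau-negative library and 57.0 CPM in the library labelled CD8 KO. Pcna, the clamp of the replication fork, was 2.08-fold lower (1.41 to 3.13), and Mcm3 and Mcm6, of the replication helicase, 2.55-fold lower (1.49 to 4.59) and 2.36-fold lower (1.33 to 4.44). Pclaf, which binds Pcna, was 2.33-fold lower (1.86 to 2.93) and the histone Hist1h2ap 4.94-fold lower (3 to 8.63). The tau-negative library had higher levels than both ages for Rrm2, Pcna, Mcm3, Mcm6 and Pclaf. Xbp1, the factor of secretory cells, was 1.86-fold lower (1.53 to 2.26). Txndc5, a chaperone of the same pathway, was 2.14-fold lower (1.54 to 3). Rexo2, a mitochondrial nuclease, was 1.98-fold lower (1.46 to 2.73), in female and in male cells alike. The intervals of the cluster shares overlapped: cells led by the surrogate light chain gene Igll1 were 10.9% (6.21 to 17.3) of B cells at 30 weeks and 7.43% (3.77 to 12.9) at 33 weeks, and those led by Vpreb3 26.1% (19.0 to 34.2) and 26.4% (19.5 to 34.2).

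T cells had lower levels of 4 of 9 measured members of a cytotoxic list and of the checkpoint gene Pdcd1 at 33 weeks. They numbered 44 at 30 weeks (median 3074.5 UMIs) and 61 at 33 weeks (median 2808 UMIs). In them 53 of 870 measured genes were at least 1.5-fold higher at 33 weeks, 6.09%, and 55 were at least 1.5-fold lower, 6.32%. Of the cytotoxic list 4 of 9 measured members were lower and 1 higher, with a median log2 ratio of -0.54 beside 0.01, and the median with female cells only was -0.07. The lower ones were Gzmk, Nkg7 and the chemokines Ccl4 and Xcl1. The interval of the Gzmk fold included 1, and Ccl4 was over 10 times higher in another class. Pdcd1, which encodes the checkpoint receptor PD-1 (chr1:94038305-94052553, minus strand), had 275 CPM at 30 weeks and 109.9 CPM at 33 weeks, beside 8.65 CPM in the tau-negative library and 61.0 CPM in the library labelled CD8 KO. It was 2.5-fold lower (1.43 to 4.54), with log2 ratios of -1.42 in female and -1.05 in male cells. A Pdcd1 UMI was found in 19 of 44 T cells at 30 weeks, 43.2% (28.3 to 59.0), and in 14 of 61 at 33 weeks, 23% (13.2 to 35.5), beside 1 of 27 in the tau-negative library and 10 of 59 in the library labelled CD8 KO. In B cells, which should lack it, 0 of 138 cells at 30 weeks and 0 of 148 at 33 weeks held a UMI, at medians of 2285 and 2039.5 UMIs, which allows shares of up to 2.17% and 2.03%. The intervals of the 2 T cell shares overlap, and both lay above the tau-negative share.

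Nkg7, a protein of cytotoxic granules, was 1.52-fold lower (1.25 to 1.85) in T cells at 1546 CPM at 30 weeks and 1018 CPM at 33 weeks, beside 908 CPM in the tau-negative library and 794 CPM in the library labelled CD8 KO, but a UMI of it was found in 65.9% (50.1 to 79.5) of T cells at 30 weeks and 65.6% (52.3 to 77.3) at 33 weeks, 2 shares close to each other. Xcl1, a chemokine that attracts dendritic cells, was 2.68-fold lower (1.70 to 4.33), with 47.1% of its 30-week UMIs in 1 cell. The interferon gene Ifi27l2a was 4.66-fold lower (2.93 to 7.69), at 619.6 CPM at 30 weeks and 133 CPM at 33 weeks, beside 389 CPM in the tau-negative library and 592 CPM in the library labelled CD8 KO, the lowest of the 4 libraries at 33 weeks, as it also was lower in all 3 endothelial classes. Klf2, which keeps T cells in circulation, was 1.77-fold higher (1.30 to 2.43), at 409 CPM at 30 weeks and 723 CPM at 33 weeks, beside 1219 CPM in the tau-negative library and 437 CPM in the library labelled CD8 KO, and the UMIs of Gzma at 33 weeks came from 1 cell. A UMI of the CD8 genes Cd8a or Cd8b1 was found in 23 of 44 T cells at 30 weeks and 27 of 61 at 33 weeks, 52.3% (36.7 to 67.5) and 44.3% (31.5 to 57.6), beside 1 of 138 and 2 of 148 B cells. A UMI of Cd4 was found in 4 of 44 and 6 of 61 T cells. Of the residency and checkpoint list 1 of 4 measured members were lower and 0 higher.

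**Figure D4:**
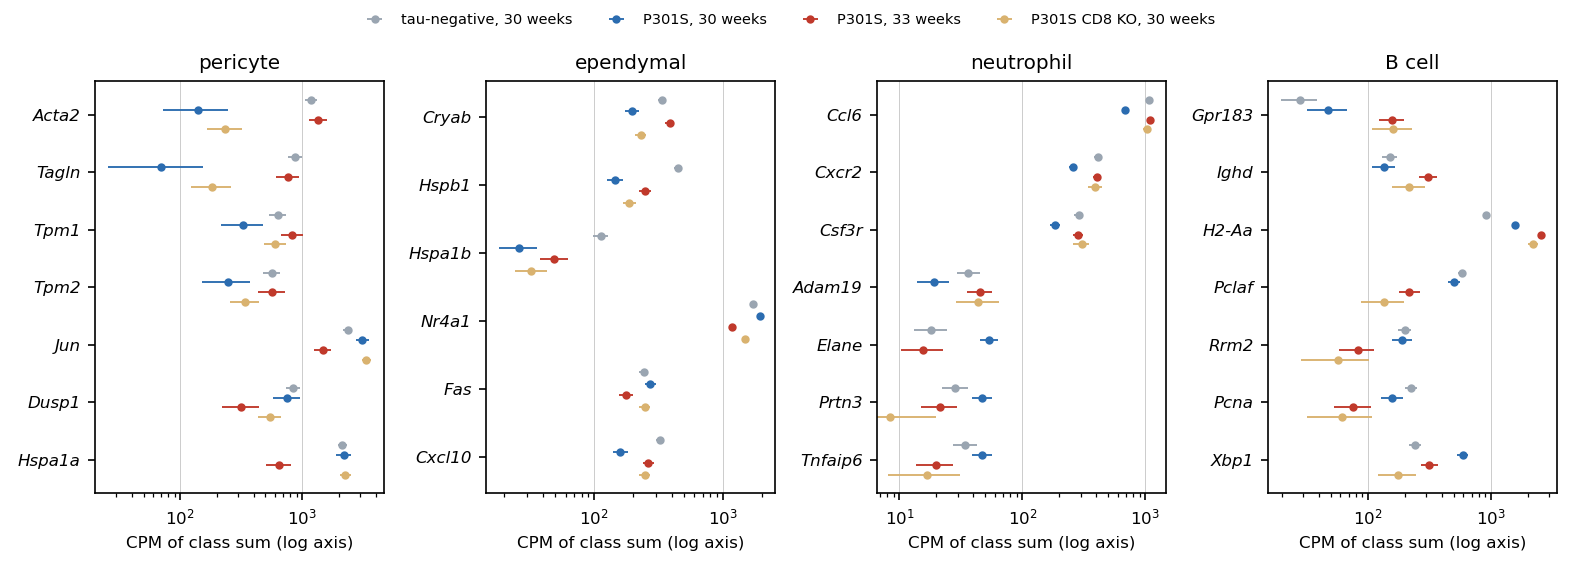
Levels of named genes in pericytes, ependymal cells, neutrophils and B cells, as CPM of the class sum (log axis) in the 4 libraries, with 95% exact Poisson intervals; Elane in the library labelled CD8 KO has 0 UMIs and no point. Acta2 of pericytes stands at 140.3 and 1357 CPM in the 2 ages, and Ccl6 of neutrophils at 679 and 1099 CPM.

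The medians of the lists are set out here for each sex of the 33-week library. The clock genes of capillary cells had medians of 0.53 in all cells, 0.38 in female and 0.51 in male cells, and the interferon genes of arterial cells -0.46, -0.70 and -0.39. The heat shock genes of ependymal cells had 0.38, 0.34 and 0.37. For these lists both sexes lay on the same side of 0. The mature neutrophil genes had 0.44, 0.08 and 1.22, and the cytotoxic genes of T cells -0.54, -0.07 and -1.62, so that in both the female value was near 0. The proliferation genes of B cells had -0.38, -0.21 and 0.40, with the sexes on opposite sides.

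**Figure D5:**
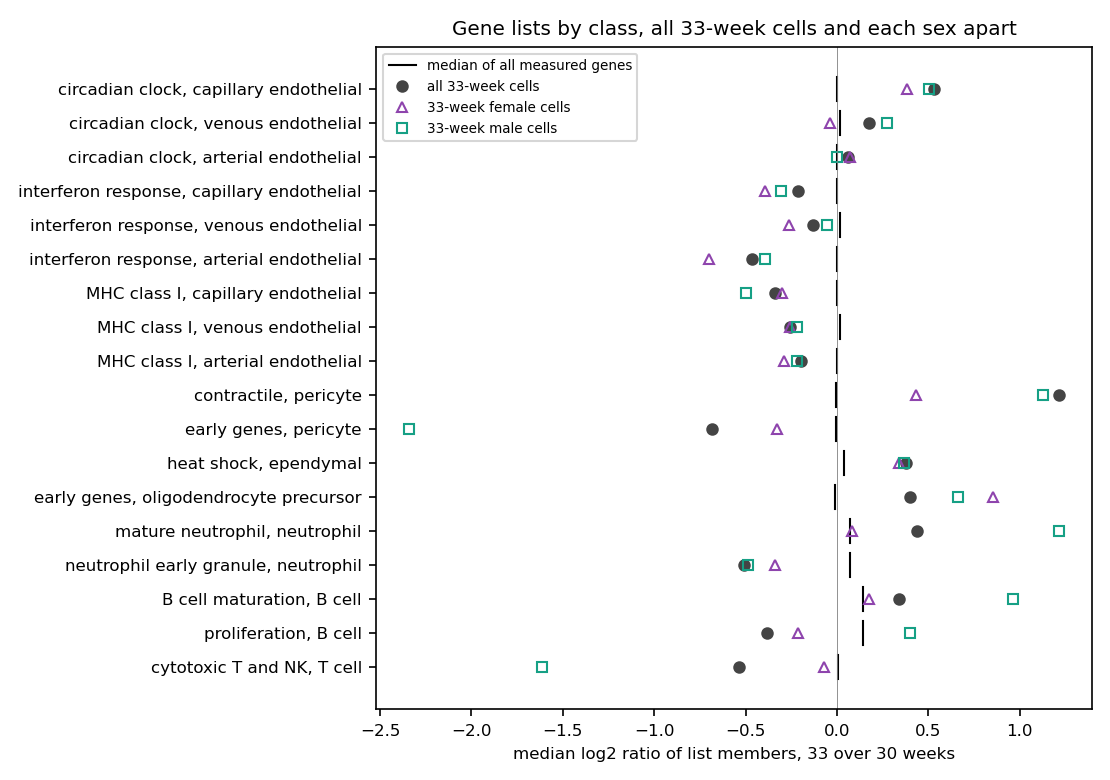
Median log2 ratio of list members, 33 over 30 weeks (horizontal axis), for lists in named classes, over all 33-week cells and over female and male 33-week cells apart, which are set against the female cells of the 30-week library. Black bars mark the median of all measured genes of the class. The clock list of capillary cells lies at 0.53 and the interferon list of arterial cells at -0.46, while female and male points of the mature neutrophil list lie at 0.08 and 1.22.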

How the data were processed

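The data are single-cell RNA-seq of mouse spinal cord, 4 libraries of combined cords, as deposited filtered UMI count matrices. The authors made these raw counts per gene and cell with Cell Ranger 6.0.1, per the file headers; the submitters' processing notes name mm10, and the annotation is not given in the sources used here. Gene positions were read from the GENCODE annotation of mm10 and promoters from RefSeq GRCm38.p6.

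Cells were limited to at least 500 UMIs, 200 genes, at most 15% mitochondrial and under 0.5% C1q UMIs. Scrublet, run in scanpy 1.11.5 with a doublet rate set to 6%, called 1.24% and 0.870% of all passing cells at 30 and 33 weeks as doublets, which were removed. The cells of all 4 libraries were clustered together on 2000 variable genes, 30 components and 15 neighbours (Leiden, resolution 1, 35 clusters) and typed by marker lists. Cells holding markers of a second lineage were set aside. This filter, the score limit of 2.5 for endothelial subtypes, the split of the cluster holding T cells, and keeping smooth muscle with 29 cells against a minimum of 30 were decided after the data were seen, as was leaving out the cell with most UMIs of a gene.

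UMIs were summed per class and library and scaled to CPM. With 1 library per group no test was run; folds carry 95% intervals for counting error only. The folds and intervals were checked on simulated Poisson counts, the model that the intervals themselves assume. That check leaves out UMIs concentrated in single cells, so it cannot show how the intervals hold for such genes. Genes with at least 50 UMIs over both ages count as measured. Genes were named by rule, the 5 highest and 5 lowest per class by the interval end nearest 1 (at least 100 UMIs and 20 CPM, genes with the same direction in female cells first), with up to 4 members per list; the genes shared by the endothelial classes were named after their values were seen. Members and lists were chosen with earlier results of these data known. Alternatives covered doublets, clustering, the C1q limit, sex, scaling, the UMI minimum and the fold limit.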

Additional observations from a re-analysis of the deposited data

Results flagged for a closer look

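Of 142 named genes that were checked and had a value in both sexes, 14 had the female and the male cells of the 33-week library on opposite sides of the 30-week female cells. Not every named gene was checked. Outside the 142, Lyz2 (log2 ratios of -1.02 in female and 1.55 in male cells) and Hmgb2 (-1.01 and 0.24) in oligodendrocyte precursors also did. So did Mylk (0.37 and -0.57) and Myl9 (-0.013 and 0.43) in pericytes and Fcer2a (-0.43 and 1.56) in B cells. The difference between the sexes was not tested, since female and male cells came from 1 library of 2 mice. In 4 of the 14 both sides were at least 1.5-fold away in one of the larger classes, with at least 20 UMIs summed over the 30-week female cells and the sex with fewer UMIs. Cdkn2d in erythroid cells had 274 CPM in female cells at 30 weeks, and 488 CPM in female and 159 CPM in male cells at 33 weeks, on 378, 859 and 55 UMIs, for log2 ratios of 0.83 and -0.79. Ciart in arterial endothelial cells had 22.5 CPM in female cells at 30 weeks, and 8.91 CPM in female and 53.6 CPM in male cells at 33 weeks, on 24, 3 and 25 UMIs, for log2 ratios of -1.34 and 1.25. Fkbp5 in capillary endothelial cells had 12 CPM in female cells at 30 weeks, and 7.92 CPM in female and 38.8 CPM in male cells at 33 weeks, on 38, 8 and 50 UMIs, for log2 ratios of -0.60 and 1.69. Fdft1 in erythroid cells had 21.7 CPM in female cells at 30 weeks, and 45.4 CPM in female and 11.5 CPM in male cells at 33 weeks, on 30, 80 and 4 UMIs, for log2 ratios of 1.06 and -0.92. The others, with log2 ratios in female and then male cells, were Ms4a1 at -0.032 and 0.75 in B cells, Odc1 at 1.47 and -0.047 in B cells, Apod at 4.46 and -0.31 in Schwann cells, Hspa5 at 0.60 and -0.19 in Schwann cells, Cebpd at -0.21 and 1.44 in astrocyte cells, Hspa1b at 1.33 and -0.35 in ependymal cells, Pdzk1ip1 at 0.71 and -0.35 in erythroid cells, Snx22 at 0.80 and -0.19 in erythroid cells, Acp5 at 4.06 and -1.04 in monocyte cells and Klf4 at 1.52 and -1.54 in oligodendrocyte precursor cells, several on fewer than 20 male UMIs.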

How the results depend on the processing

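Of the 146 named genes given above that were recomputed, 132 kept the sign of their log2 ratio under every alternative run for them, where female cells were an alternative and male cells were not. Genes named by rank were taken with those of the same direction in female cells first. For them the agreement in female cells was thus partly fixed in advance. In male cells alone 11 of the 142 checked genes with a value in both sexes had the other sign. Of 42 lists 27 kept the sign of their median, most of the rest having medians near 0; that of interferon genes in venous cells was 0.21 with called doublets kept and 0.27 at a resolution of 2. In male cells 6 of 42 lists had the other sign. Igfbp5 and Nts in arterial cells and lists under 5 measured members were not recomputed. Ratios of shares, 33 over 30 weeks, with female cells only were 0.671 for endothelial, 0.861 for ependymal, 0.315 for astrocyte, 0.995 for neutrophil, 1.5 for monocyte and 3 for erythroid cells, so that the ependymal ratio crossed 1. With cord-resident types as the denominator the endothelial ratio was 0.957, and the ratio of oligodendrocyte precursors was 0.528 both at a resolution of 2 and with the 2 libraries clustered alone.

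Counts of genes past 1.5-fold moved by more than 1.5 times in these cases. With a 2-fold limit, the counts were 35 in B, 26 in arterial, 24 in capillary, 11 in erythroid, 20 in monocyte, 29 in neutrophil and 40 in venous cells for genes higher, and 27 in B, 26 in arterial, 31 in capillary, 54 in erythroid, 16 in monocyte, 21 in neutrophil and 54 in venous cells for genes lower. At a clustering resolution of 2, the counts were 300 in monocyte and 139 in venous cells for genes higher, and 384 in neutrophil cells for genes lower. With TMM scaling, the counts were 146 in B and 304 in erythroid cells for genes higher, and 133 in B, 175 in erythroid and 226 in neutrophil cells for genes lower. With at least 200 UMIs required, the counts were 23 in B, 14 in arterial, 26 in capillary, 30 in erythroid, 9 in monocyte, 50 in neutrophil and 25 in venous cells for genes higher, and 8 in B, 23 in arterial, 38 in capillary, 52 in erythroid, 7 in monocyte, 11 in neutrophil and 40 in venous cells for genes lower. With called doublets kept and the cells clustered anew, the counts were 88 in arterial cells for genes higher, and 114 in arterial cells for genes lower. With second-lineage cells kept, the counts were 271 in erythroid cells for genes higher. With female cells only, the counts were 122 in B cells for genes higher, and 368 in arterial and 337 in capillary cells for genes lower. As a mean over cells of each cell's CPM, the counts were 395 in arterial, 332 in capillary, 259 in erythroid, 449 in neutrophil and 514 in venous cells for genes higher, and 167 in B, 371 in arterial, 353 in capillary, 677 in erythroid, 322 in neutrophil and 464 in venous cells for genes lower.

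Log2 ratios on the other side of 0 were -0.15 for Tyrobp in ependymal cells with C1q UMIs under 0.2%; -0.0096 for Tyrobp in ependymal cells with at most 10% mitochondrial UMIs; -0.032 for Ms4a1 in B cells, -1.34 for Ciart in arterial cells, -0.60 for Fkbp5 in capillary cells, -1.31 for Cxcl10 in monocyte cells and -0.21 for Cebpd in astrocyte cells with female cells only; -0.29 for Ccn1 in arterial cells, 0.018 for Rsad2 in arterial cells and -0.76 for Hsph1 in arterial cells with called doublets kept; -0.33 for Acp5 in monocyte cells, -1.02 for Cxcl10 in monocyte cells and -3.28 for Timp1 in Schwann cells without the cell holding most of its UMIs; 0.037 for Gbp2 in venous cells at a resolution of 2; -0.53 for Tyrobp in ependymal cells and -0.23 for Socs3 in oligodendrocyte precursors as a mean over cells; 0.047 for the early gene median of pericytes and -0.14 for Vim in pericyte cells with second-lineage cells kept. In addition, Lyz2, Hmgb2 and Stmn1 in oligodendrocyte precursors had log2 ratios of -1.02, -1.01 and -0.66 with female cells only. The causes of these differences were not tested, apart from the fewer genes or cells that a stricter limit or female cells alone leave. T cells could not be told from other lymphoid cells with doublets kept or with the 2 libraries clustered alone, so their results were not recomputed there. No paired analysis was possible because each age has 1 library. Depth limits the small classes: pericytes had 599 and Schwann cells 547 genes with at least 50 UMIs, against 8597 in capillary cells. With 1 library per age, differences between mice, sexes, preparations and ages cannot be told apart.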
